A study of Mus musculus with 4 samples.

Results

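7SK RNA, the product of the gene Rn7sk, was compared with the other short RNAs that RNA polymerase III (Pol III) makes and that carry a gene symbol of their own in the deposited tables. The genes were picked by symbol, as Rn7sk, Rmrp, Rpph1, Rny1, Rny3, Vaultrc5, Rn7s1 and Rn7s2, and each symbol belonged to 1 gene model, so that the group held 8 of 50600 models. Rn7s1 and Rn7s2 encode near-identical copies of 7SL RNA that share reads, and they were summed, which left 7 RNAs to compare. RNA was recovered by RNA immunoprecipitation (RIP) from testes of C57BL/6 mice aged 8 weeks, with either an antibody against LARP7 or a non-specific IgG that measures background sticking. The labels give no genotype or treatment. Whether the replicates are different animals, and whether testes were pooled, is not stated there, so a p-value here reflects the spread of these libraries alone, which may be technical. Each antibody had 2 libraries (n = 2), made from inserts of 15 to 300 nt after lysis at 150 mM NaCl and bead washes at 500 mM NaCl. The 4 libraries held between 4411271 and 6994514 expected counts, which are RSEM's estimates of the reads per gene model.

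7SK is the scaffold of a ribonucleoprotein that holds the transcription elongation factor P-TEFb in an inactive state, and LARP7 is the protein that sits on the uridine-rich 3′ end of 7SK and stabilises it. Most Pol III transcripts end in such a run of uridines, and the related La protein binds these ends soon after synthesis. The other RNAs share the polymerase with 7SK but work in different particles. Whether the RNAs counted here still carried such 3′ ends was not examined. 7SL is the scaffold of the signal recognition particle, which targets secreted and membrane proteins to the endoplasmic reticulum. Rmrp and Rpph1 are the RNA parts of the related enzymes RNase MRP, which acts on ribosomal RNA precursors, and RNase P, which trims the 5′ ends of tRNA precursors. Rny1 and Rny3 encode the Y RNAs, which bind the Ro60 and La proteins. Vaultrc5 encodes a vault RNA, a part of the large vault particle of the cytoplasm.

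In RefSeq's annotation of GRCm38.p6, the assembly behind mm10, Rn7sk (ENSMUSG00000065037.1) lies on chromosome 9 from 78175302 to 78175633. Rmrp (ENSMUSG00000088088.1) lies on chromosome 4 from 43492785 to 43493059, and Rpph1 (ENSMUSG00000092837.1) on chromosome 14 from 50807447 to 50807771. The Y RNA genes are neighbours on chromosome 6, Rny3 (ENSMUSG00000064945.1) from 47781624 to 47781724 and Rny1 (ENSMUSG00000065701.1) from 47788070 to 47788180. Both 7SL genes are on chromosome 12, Rn7s1 (ENSMUSG00000099021.1) from 69159295 to 69159593 and Rn7s2 (ENSMUSG00000099250.1) from 69361183 to 69361481. Vaultrc5 (ENSMUSG00000065145.1) is on chromosome 18 from 36801763 to 36802107, where RefSeq's gene of 345 nt is longer than the 143 nt model used for counting. The counted models of the others were 331 nt for 7SK, 319 nt for Rpph1, 300 nt for each 7SL copy, 271 nt for Rmrp, 112 nt for Rny1 and 102 nt for Rny3. No gene in that annotation overlapped any of the 8. The nearest gene was Rps29, 108 bases from Rn7s1, and the lncRNA gene C920006O11Rik, 280 bases from Rn7sk, held 21 counts or fewer in every library.

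The effective lengths in the files correspond to mean read lengths of 65.8 and 63.8 nt in the LARP7 libraries and 64.2 and 61.8 nt in the IgG libraries. All 7 RNAs are longer than these means. By the same effective lengths, 78% to 84% of the reads in a library were at most 75 nt long. Most reads of a library thus cover no more than a stretch of any of these RNAs, while longer reads could span a whole Y RNA. Intact molecules were not told from fragments. RSEM assigned the reads of 7SK almost without doubt, with a posterior SD of at most 4.05 counts in any library. For Rmrp, Rny3 and Vaultrc5 the posterior SD was 0 in all libraries, while for each 7SL copy alone it reached 919 counts of 2029 in LARP7 replicate 2. Markers of testis germ cells (8 of 8 genes) were detected in every library. The summed level of those markers was 358 and 264 CPM (counts scaled to a common library total) with the LARP7 antibody and 2515 and 1823 CPM with IgG, and what part this shift in mRNA content has in the results below was not tested.

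7SK was the dominant short Pol III RNA in the LARP7 libraries, and this was its most visible difference from the others. It had 316542 and 931240 expected counts with the LARP7 antibody and 38611 and 61786 with IgG. As a share of all counts this was 4.58% and 14.3% against 0.552% and 1.40%, and the groups did not overlap. The exact (Clopper-Pearson) 95% intervals of these shares cover counting error only and are narrow, for example from 4.56% to 4.59% in LARP7 replicate 1 and from 0.547% to 0.558% in IgG replicate 1. The distance between replicates exceeds them many times over. By count 7SK ranked 5 and 1 among all gene models in the LARP7 libraries and 15 and 9 in the IgG libraries.

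**Figure D1:**
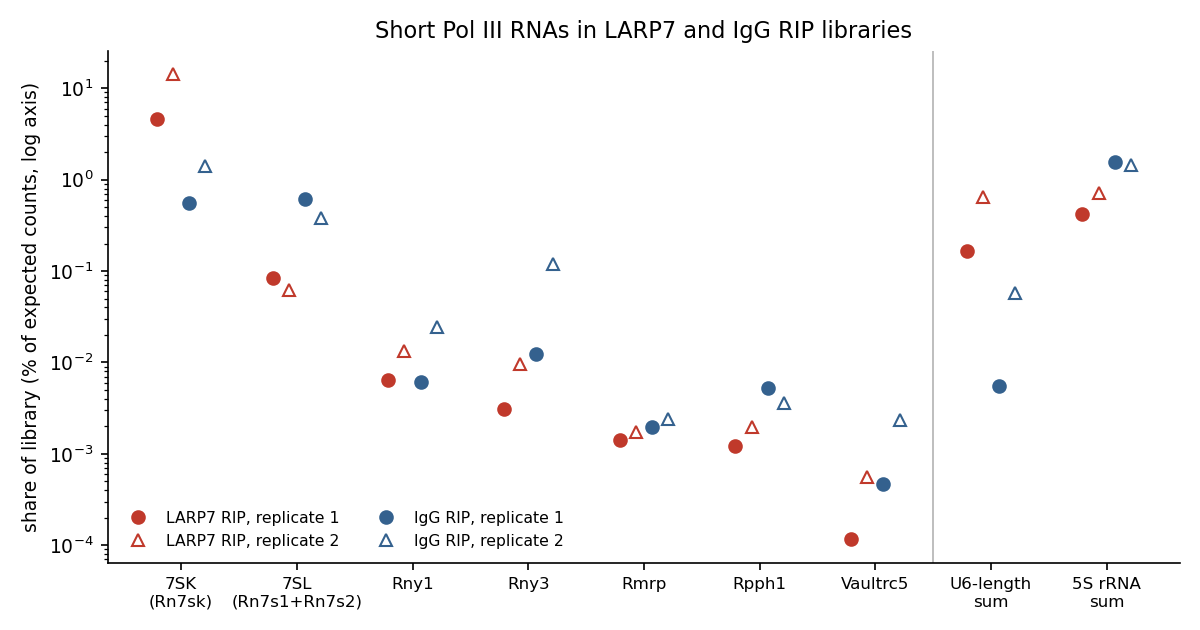
Share of each library's expected counts (percent, log axis) taken by 7SK, the 6 other short Pol III RNAs and, right of the line, the summed U6-length snRNA and 5S rRNA models; red symbols are the LARP7 libraries, blue the IgG libraries, filled circles replicate 1 and open triangles replicate 2. 7SK takes 4.58% and 14.3% of the LARP7 libraries and at most 1.40% of an IgG library, and 7SL lies the other way.

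7SL went the other way. Summed over both copies it had 5747 and 4058 counts with the LARP7 antibody and 42708 and 16621 with IgG, or 0.0831% and 0.0624% of a library against 0.611% and 0.377%. Every LARP7 value was below every IgG value. As shares of a library, Rmrp, Rpph1 and Rny3 showed the same split, so it did not set 7SL apart. How many of all genes split this way by share was not counted. Lower values were common on that scale, where edgeR with library totals called 47.1% of genes lower. The 5 rarer RNAs had fewer counts. Rmrp had 99 and 113 counts against 136 and 106, which as shares gave 0.00143% and 0.00174% against 0.00194% and 0.00240%. Rpph1 had 85 and 128 against 370 and 159 counts, so the IgG libraries were higher but apart from each other. Rny1 had 441 and 865 counts against 425 and 1074, and the groups overlapped. Rny3 had 216 and 633 against 870 and 5231, where IgG replicate 2 alone held most of the reads. Vaultrc5 was the rarest, with 8 and 36 counts against 33 and 104, and the exact 95% interval of its share in LARP7 replicate 1 ran from 4.99e-05% to 0.000228%.

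Within the 7 RNAs, 7SK made up 98.0% and 99.4% of the counts in the LARP7 libraries. In the IgG libraries it made up 46.4% and 72.6%, and 7SL took 51.4% and 19.5%. Rny3 took 1.05% and 6.15% of this sum in the IgG libraries and 0.0668% and 0.0676% in the LARP7 libraries. The background of the IgG thus held 7SK too, and in IgG replicate 1 it held more 7SL than 7SK.

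**Figure D2:**
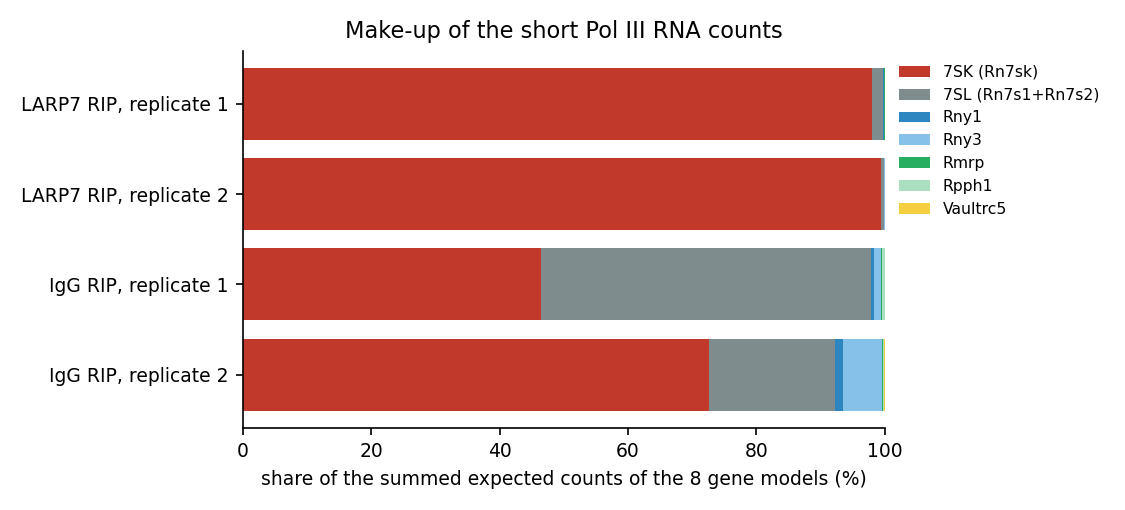
Make-up of the summed expected counts of the 8 gene models in each library, as percent, with Rn7s1 and Rn7s2 shown together as 7SL; counts are not divided by length. 7SK fills 98.0% and 99.4% of the LARP7 bars and 46.4% and 72.6% of the IgG bars.

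Levels of different RNAs were compared per length, in the authors' TPM. In LARP7 replicate 1 the TPM levels were 4131 for 7SK, 84.9 for 7SL, 30.3 for Rny1, 18.2 for Rny3, 1.67 for Rmrp, 1.16 for Rpph1 and 0.35 for Vaultrc5. In LARP7 replicate 2 the order was the same, with 22322 TPM for 7SK, 110 for 7SL, 106 for Rny1, 94.9 for Rny3, 3.49 for Rmrp, 3.21 for Rpph1 and 2.82 for Vaultrc5. The order was thus shared by both LARP7 libraries, but the gaps from 7SL to Rny1 and Rny3 and among the last 3 RNAs in replicate 2 were smaller than the change of each between replicates. The IgG libraries had other orders. In IgG replicate 1, 7SL led with 2384 TPM before 7SK with 1906, Rny3 with 263, Rny1 with 106, Rpph1 with 19.1, Rmrp with 8.65 and Vaultrc5 with 5.32. In IgG replicate 2, 7SK had 3143 TPM, Rny3 1657, 7SL 955, Rny1 279, Vaultrc5 17.2, Rpph1 8.46 and Rmrp 6.93. TPM divides by an effective length of only 41.1 to 43.7 nt for Rny3 and 50.6 to 52.9 nt for Rny1, so the levels of these short RNAs lean on the read length assumed.

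The test of antibody used edgeR on all 12233 genes that passed its filter, with TMM scaling, and all 7 RNAs passed that filter. 7SK rose and was the one called: it had 82236 and 213646 CPM (TMM-scaled) with the LARP7 antibody against 3017 and 9776 with IgG, 23.1-fold more, which is a log2 fold change of 4.53 with an SE of 1.07 (adjusted p = 0.0167 by edgeR). Of the 7 RNAs, 1 was called higher and 0 lower, beside 14.5% of all genes called higher and 9.70% called lower. At an unadjusted edgeR p under 0.05, 2 of the 7 were higher (7SK and Rmrp) and 0 lower, beside 2563 and 2225 of the 12233 genes. DESeq2 called 1 higher, 7SK, and 1 lower, 7SL, beside 15.8% and 6.84% of the 10810 genes to which it gave an adjusted p. Of all genes tested, 126 had a log2 fold change at least as high as that of 7SK, itself included. That rank depended on the libraries used, at 172 of 14650 genes without LARP7 replicate 1, 215 of 14314 without LARP7 replicate 2, 672 of 12887 without IgG replicate 1 and 251 of 14054 without IgG replicate 2. Among the 108 genes with a mean of at least 1000 CPM it ranked 4.

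None of the other 6 RNAs passed the threshold with TMM scaling. Rmrp had 25.7 and 25.9 CPM against 10.6 and 16.8 (log2 fold change 0.92 with an SE of 0.40, adjusted p = 0.112 by edgeR). Its LARP7 values both lay above the IgG values, which together with 7SK made 2 of 7 RNAs with that pattern, beside 32.9% of all genes tested. 7SL had 1493 and 931 CPM against 3337 and 2630 (log2 fold change -1.30 with an SE of 0.70, adjusted p = 0.187 by edgeR). It was the 1 RNA of 7 with both LARP7 values below both IgG values, a pattern that 35.6% of all genes showed. Its copies Rn7s1 and Rn7s2, which RSEM gave equal counts, had the same -1.30 each when fitted as separate rows.

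The RNase P RNA Rpph1 had 22.1 and 29.4 CPM against 28.9 and 25.2 (log2 fold change -0.07 with an SE of 0.39, adjusted p = 0.906 by edgeR). The Y RNAs pointed different ways without a call. Rny1 had 115 and 198 CPM against 33.2 and 170 (log2 fold change 0.63, SE 0.73, edgeR adjusted p = 0.552). Rny3 had 56.1 and 145 CPM against 68.0 and 828 (-2.15 with an SE of 1.13, adjusted p = 0.2 by edgeR). Vaultrc5 had 2.08 and 8.26 CPM against 2.58 and 16.5 (-0.83, SE 1.02, edgeR adjusted p = 0.581). For each of these 4 RNAs the groups overlapped. The median log2 fold change over the 6 RNAs was -0.45, against -0.05 over all genes tested, and IgG replicate 2 decided its sign, since without that library it was 0.83.

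The direction of 7SK did not depend on how libraries were scaled, while other values did. With library totals in place of TMM the median over all genes moved to -1.47, and 7SK was higher by 3.27 (SE 0.81, edgeR adjusted p = 0.000300), beside 3.95% of genes called higher. With that scaling 4 of the 6 others were called lower, namely Rpph1 (-1.48), Rny3 (-3.35), Vaultrc5 (-2.07) and 7SL (-2.77), beside 47.1% of all genes. A lower value was thus common among all genes on this scale. Rmrp (-0.46) and Rny1 (-0.63) changed sign with that scaling and were not called. On the scale log2(TPM + 1), where limma called 0 genes higher and 0 lower (89 and 5687 at an unadjusted p under 0.05), 7SK had 1.97 (adjusted p = 0.0856).

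**Figure D3:**
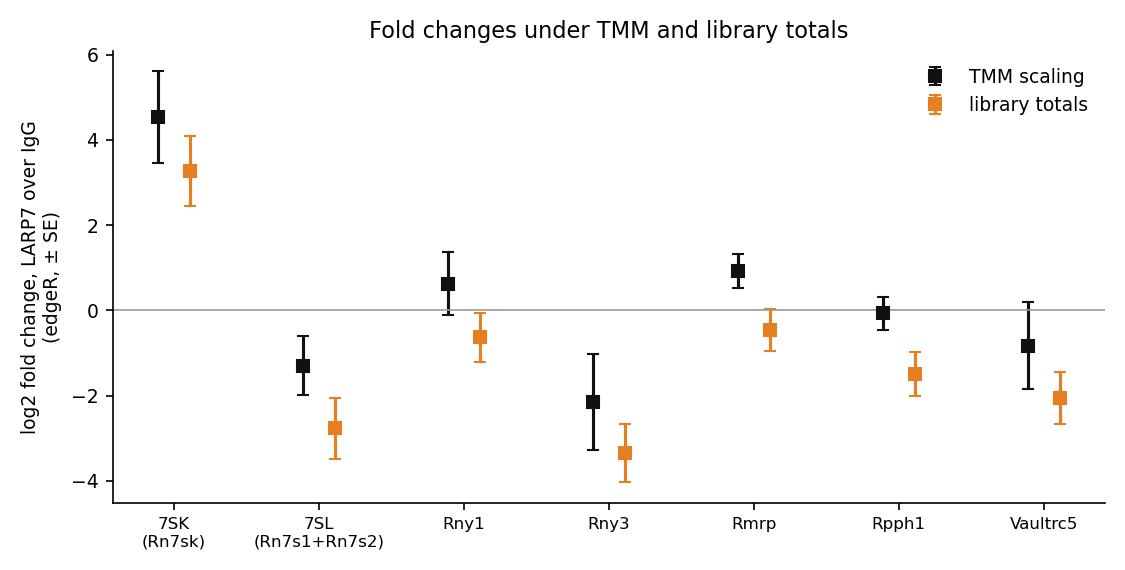
Log2 fold change of each RNA, LARP7 over IgG, from edgeR with TMM scaling (black) and with library totals (orange); bars are ± SE, n = 2 libraries per antibody. 7SK stays above 0 under both, at 4.53 and 3.27, while Rmrp and Rny1 lie above 0 with TMM and below it with library totals.

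A ratio taken within a library does not depend on scaling. 7SK counts per 7SL count were 55.1 and 229 in the LARP7 libraries and 0.904 and 3.72 in the IgG libraries. Per Rny1 count there were 718 and 1076 against 90.8 and 57.5. For Rny3 the ratios were 1466 and 1471 against 44.4 and 11.8, so the LARP7 libraries nearly coincided. Thus 7SK stood higher relative to each of these RNAs in both LARP7 libraries than in either IgG library. 7SK per Rmrp count was 3197 and 8241 against 284 and 583, and per Rpph1 count 3724 and 7275 against 104 and 389. Against Vaultrc5 the ratio was 39568 and 25868 against 1170 and 594.

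In all 6 comparisons the groups were apart, and the mean log2 ratio (0.5 added to each count) was higher with the LARP7 antibody. The 6 ratios share the 7SK count and are not independent of each other. Groups that do not overlap were common, since 8 of the 15 pairs without 7SK were apart too. The share of all genes whose ratio to 7SK kept the groups apart was not counted. With TMM scaling 126 of 12233 genes had a fold change at least that of 7SK, itself included. A higher ratio of 7SK is thus not particular to these 6 RNAs. The difference was smallest against Rny1 (3.60, or 12.2-fold) and Rmrp (3.66, or 12.6-fold) and came to 4.69 against Rpph1 and 5.22 against Vaultrc5. It was 5.94 (61.3-fold) against 7SL and 6.00 (64.1-fold) against Rny3. The pooled SD between replicates on this log2 scale ran from 0.44 for Rny1 to 1.45 for 7SL, so each difference exceeded that spread several times over. Leaving out 1 library moved the difference against 7SL to between 4.91 (without LARP7 replicate 2) and 6.97 (without LARP7 replicate 1), and that against Rny3 to between 5.05 (without IgG replicate 2) and 6.96 (without IgG replicate 1). An exact two-sided permutation test over 2 against 2 libraries cannot go below p = 0.333, the value each of the 6 gave, with 0.5 after adjustment over all 21 pairs of the 7 RNAs.

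**Figure D4:**
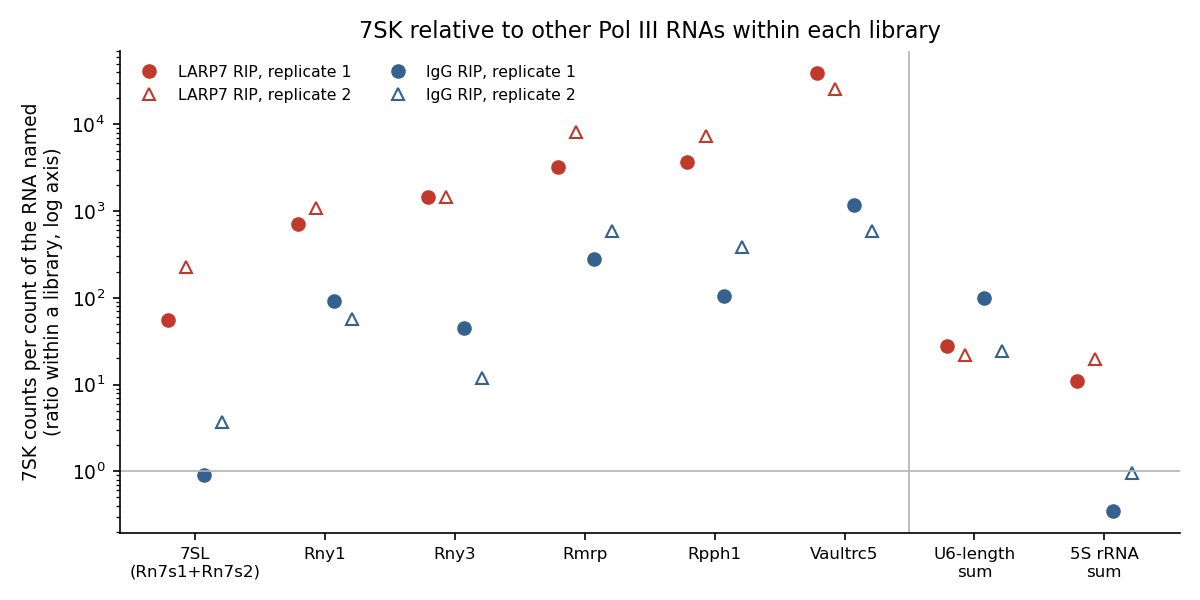
Expected counts of 7SK per count of the RNA named (log axis), within each library; red is LARP7, blue IgG, filled circles replicate 1, open triangles replicate 2, and the grey horizontal line marks equal counts. For all 6 RNAs left of the vertical line both LARP7 libraries lie above both IgG libraries, as they do for the 5S rRNA sum, whereas for the U6-length sum the groups overlap.

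To test 7SK against the other RNAs with the spread estimated from all genes, each library was scaled to the summed counts of the 6 others. 7SK was then higher by 5.88 (SE 1.12, edgeR adjusted p = 0.00232), beside 35.9% of all genes called higher and 0.826% lower with that scaling. The call held with each library left out, with log2 fold changes of 4.77 to 6.90 and edgeR adjusted p of 0.0431 without LARP7 replicate 2 at most. The scale is mostly that of 7SL, which made up 87.1% and 69.6% of the 6 others in the LARP7 libraries and 95.9% and 71.4% in the IgG libraries. Rmrp was also called higher on it (2.18, SE 0.46, edgeR adjusted p = 0.00356), a call lost without IgG replicate 1 (1.91, adjusted p = 0.0735).

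The Y RNAs exchanged their order between antibodies. Rny1 held 2.04 and 1.37 counts per Rny3 count with the LARP7 antibody and 0.489 and 0.205 with IgG. The difference in log2 ratio was 2.40, with a pooled SD of 0.69, and its exact permutation p was the smallest possible, 0.333. Rmrp had 1.16 and 0.883 counts per Rpph1 count with the LARP7 antibody and 0.368 and 0.667 with IgG, so Rmrp exceeded Rpph1 only in LARP7 replicate 1. The difference in log2 ratio was 1.03 with a pooled SD of 0.47. The ratio of Rny3 to 7SL was 0.0376 and 0.156 against 0.0204 and 0.315, with the LARP7 values inside the range of the IgG values.

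Single libraries decided some of these values. For 7SK, leaving out LARP7 replicate 1 gave 5.04 (adjusted p = 0.0800 by edgeR), and leaving out LARP7 replicate 2 gave 3.68 (adjusted p = 0.211), so neither passed. With IgG replicate 1 left out it was called at 3.91 (adjusted p = 0.00137 by edgeR), and with IgG replicate 2 left out at 5.66 (adjusted p = 3.36e-05). IgG replicate 2 carried the Y and vault values. Without it Rny1 was called higher (2.28, edgeR adjusted p = 0.0401), and Rny3 and Vaultrc5 turned to 0.61 and 1.05, not called. Without IgG replicate 1, Rny3 (-3.05, edgeR adjusted p = 0.00124) and Vaultrc5 (-1.66, adjusted p = 0.0487) were called lower. 7SL and Rmrp kept their sign with each library left out, at -1.69 to -0.998 and 0.62 to 1.33, and neither was called.

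**Figure D5:**
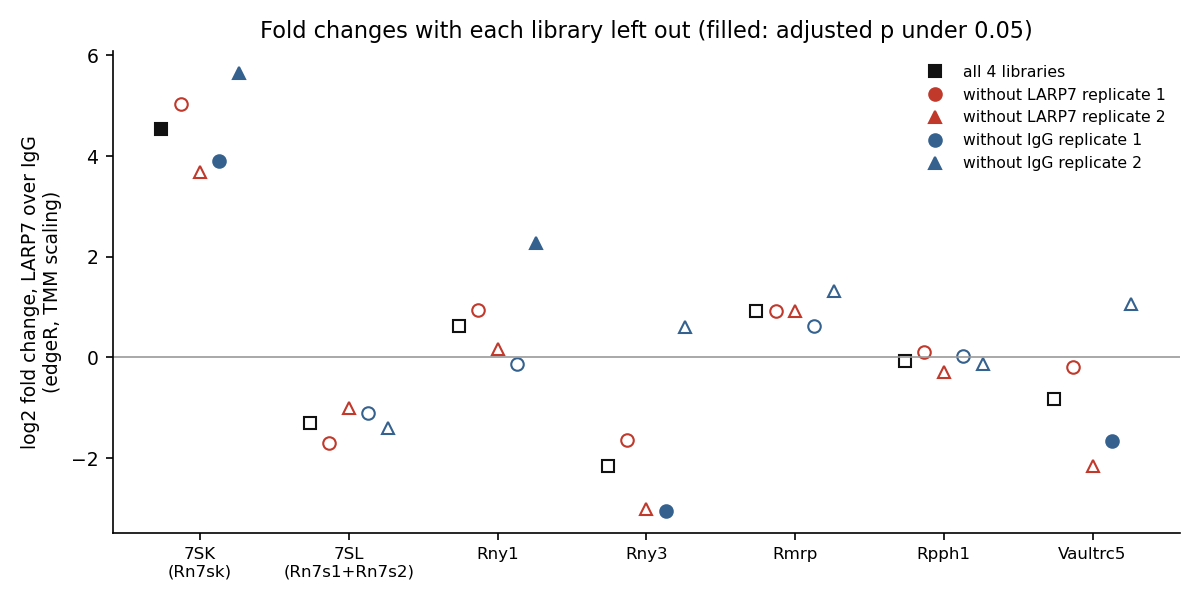
Log2 fold change (edgeR, TMM scaling) of each RNA with all 4 libraries (black squares) and with each library left out (red, a LARP7 library; blue, an IgG library; circles, replicate 1; triangles, replicate 2); filled symbols have an adjusted p under 0.05. 7SK lies between 3.68 and 5.66 throughout, while Rny1, Rny3 and Vaultrc5 lie on both sides of 0, depending on which IgG library is left out.

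U6 and 5S rRNA are the other abundant Pol III RNAs in the tables. U6, the catalytic core of the spliceosome and a known LARP7 partner, was summed over 382 snRNA models of the length of Rnu6, and 5S rRNA, a part of the large ribosomal subunit, over 180 models, both added after seeing the data. The U6-length sum had 11332 and 42501 counts with the LARP7 antibody and 384 and 2550 with IgG. 7SK per U6-length count was 27.9 and 21.9 against 101 and 24.2, so here the groups overlapped, with a difference in log2 ratio of -0.996 and a pooled SD of 1.04 (exact permutation p = 0.667). The 5S sum had 28931 and 46641 counts against 110504 and 63908, and 7SK per 5S count was 10.9 and 19.97 against 0.349 and 0.967, a difference in log2 ratio of 4.67. In this fit, TMM-scaled, 7SK had 4.55, the U6-length sum 4.89 (SE 1.30, edgeR adjusted p = 0.0245) and the 5S sum -0.03 (SE 0.79, edgeR adjusted p = 0.983). Without LARP7 replicate 2 the U6-length sum was not called (3.76, adjusted p = 0.109 by edgeR), while without IgG replicate 2 its value was 7.77. The groups were thus apart for the ratio of 7SK to 5S rRNA, and not for its ratio to the U6-length sum.

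Other copies were few. Rn7s6, a gene model with a 7SL symbol, had 16.2 and 56.9 expected counts with the LARP7 antibody and 7.68 and 3.10 with IgG. It was called higher, at a log2 fold change of 3.90 with an SE of 0.74 (adjusted p = 0.00828 by edgeR), where the sum of Rn7s1 and Rn7s2 had a negative value. With LARP7 replicate 2 left out Rn7s6 did not pass (2.86, adjusted p = 0.201 by edgeR). The posterior SD of its counts, 6.93, 14.2, 5.80 and 4.63, was near or above the counts themselves in the IgG libraries, so the division of reads between it and other models is uncertain. Rnu6, the one U6 model with that symbol, had 186 and 797 rounded counts against 10 and 5 and was called higher (7.17 with an SE of 0.83, adjusted p = 0.00224 by edgeR). Its posterior SD reached 720 counts in LARP7 replicate 2, so its reads too are shared with other models. The RNase P-like genes Rprl1, Rprl2 and Rprl3 had at most 2 counts in a library. Among all 127 other Pol III models tested, nearly all U6-length or 5S copies that share reads, 47 were called higher and 3 lower, beside the 14.5% and 9.70% of all genes. Of these, 36 of 72 U6-length models were higher and 0 lower. The 72 were those of 382 that passed the filter, which a model could do on its LARP7 counts alone. Gm26295, for example, had 234 and 811 counts against 0 and 0. The filter thus helped to set this share and that of the 127 models. The median log2 fold change of the U6-length models was 4.92. Leaving out a library changed the models tested. The median was then 5.41 without LARP7 replicate 1, 4.49 without LARP7 replicate 2, 3.77 without IgG replicate 1 and 7.44 without IgG replicate 2. Of 54 5S models 10 were higher and 3 lower, which is near the share over all genes, and with a library left out between 1 (without LARP7 replicate 2) and 6 (without IgG replicate 1 or IgG replicate 2) were higher.

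Among 415 genes with a mean of at least 100 CPM, those most like 7SK over the 4 libraries were named by the distance between log2 CPM values centred on each gene's mean. The nearest were the lncRNA gene 4930481A15Rik (distance 0.77), Med23 (0.94), the microRNA precursor Mir351 (1.14) and the small RNA models Gm22879 (1.21) and Gm24494 (1.23). 4930481A15Rik had 512 and 1052 CPM against 26.3 and 93.7, and Gm22879 had 28439 and 26968 against 994 and 3099. Their log2 fold changes ran from 3.30 to 5.59, a direction that the choice of genes like 7SK fixes. The other Pol III RNAs lay farther away, from 3.66 for Rny1 and 3.87 for Rmrp to 6.15 for Rny3 and 6.28 for 7SL. Among themselves Rny3 and Vaultrc5 were the closest pair, at 1.13, followed by Rmrp and Rpph1 at 1.21. With 4 libraries many patterns look alike, and these distances are a description.

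The mRNAs of the proteins that these RNAs join were counted as a separate list. Of 31 such models in the files 22 were tested, and 1 was called higher and 2 lower, beside 14.5% and 9.70% of all genes. Their median log2 fold change was -0.56, against -0.05 over all genes. Ccnt2, which encodes a cyclin of P-TEFb, had 34 and 67 counts with the LARP7 antibody and 53 and 20 with IgG (1.71, SE 0.49, edgeR adjusted p = 0.0296). Leaving out LARP7 replicate 2 (1.26) or IgG replicate 2 (1.59) ended that call, as did library totals (0.31). The mRNA of Larp7 itself had 56 and 39 counts against 457 and 183 (-1.46, SE 0.41, edgeR adjusted p = 0.0291), a call lost without LARP7 replicate 2 (-1.15), IgG replicate 1 (-1.30) or IgG replicate 2 (-1.56). Srp54a, which encodes the GTPase of the signal recognition particle, had 32 and 25 counts against 279 and 136 (-1.63, SE 0.42, edgeR adjusted p = 0.0218), not called without LARP7 replicate 2 (-1.38) or IgG replicate 1 (-1.61). All 7 tested mRNAs of that particle had negative values, with a median of -1.11, but 1 of the 7 passed the test. The share of all genes with a negative value was not counted. On library totals, where the median over all genes was -1.47, germ cell marker mRNAs were lower too, at 358 and 264 summed CPM against 2515 and 1823. That scale differs from the TMM scale of the values above. The markers therefore do not show whether a negative value is particular to the mRNAs of the signal recognition particle. In the 7SK particle's list 5 of 7 did not pass, among them Hexim1 (1.21), the P-TEFb inhibitor, and Mepce (-0.46), which caps 7SK. No mRNA of RNase MRP and RNase P proteins (5 tested), of vault proteins (2, Mvp at 0.22) or of Ro and La (1, Ssb at -1.03) was called.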

How the data were processed

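Expected counts, posterior mean counts and TPM per gene model are the authors' deposited values, one file per library. The submitters' processing notes name RSEM, Bowtie2, cutadapt and the mouse build mm10, with no version of any tool. Reads that map to several models are divided among them by RSEM, and TPM is per effective length. The deposited tables also hold a posterior SD of each count and lengths, as signal values. The members and all gene lists were chosen with earlier results of these data known.

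Expected counts were rounded, since 13.4% to 18.9% of values per library were not whole, and tested with edgeR 4.0.16 in R 4.3.3: filterByExpr, TMM, robust quasi-likelihood F tests, two-sided, antibody as the only term, Benjamini-Hochberg over 12233 genes, threshold 0.05. TMM factors were 0.558, 0.673 (LARP7), 1.85 and 1.44 (IgG). The standard error is the unshrunk log2 fold change over the square root of F. Alternatives were library totals, DESeq2 1.42.0 and its size factors, limma 3.58.1 on log2(TPM + 1), no filter, posterior mean counts, non-robust fitting, the replicate number as a block, and each library left out. Chi-square per degree of freedom was 124 between the LARP7 and 53.4 between the IgG replicates, so they are distinct libraries. Tested on simulated data (10715 genes), the edgeR fit recovered 0 of 43 changes of 2-fold, 20 of 49 of 4-fold and 34 of 42 of 8-fold. Named genes were all members, the 5 genes nearest to Rn7sk, Rnu6 the U6-length and 5S sums, 7SK, 7SL, Y and vault copies by symbol with at least 10 counts, Rprl1 to Rprl3, and from each partner list the mRNAs called and a defining subunit; Hexim1 and Mepce were named after their values were seen. Ro60 is listed under its earlier symbol Trove2, which did not pass the filter. Srp54c, Rnu6atac, Bc1 and Rn4.5s had no match by symbol and were not analysed. No cell type was inferred.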

Additional observations from a re-analysis of the deposited data

How the results depend on the processing

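With 2 libraries per antibody the spread between libraries limits every test, and Vaultrc5, with 8 to 104 counts, is also limited by depth. 7SK was higher under every setting run, and missed the threshold on log2(TPM + 1) in limma (1.97), without robust fitting (4.53, edgeR adjusted p = 0.0546) and without either LARP7 library; with a library left out it ranged from 3.68 to 5.66. With library totals Rpph1 (-1.48), Rny3 (-3.35), Vaultrc5 (-2.07) and 7SL (-2.77) passed, as did Rny3 without a filter (-2.22) and 7SL in DESeq2 (-1.24). Signs turned for Rmrp and Rny1 with library totals (-0.46 and -0.63) and in limma (-1.34 and -1.58). With a library left out Rpph1 ranged from -0.29 to 0.10, including 0.03 without IgG replicate 1, Rny1 from -0.12 to 2.28, Rny3 from -3.05 to 0.61 and Vaultrc5 from -2.16 to 1.05. The differences in log2 ratio of 7SK to the 6 others were 3.57 to 5.96 in TPM and 2.97 to 6.97 with a library left out. Over all genes 1771 were called higher and 1187 lower; library totals gave 483 and 5758, DESeq2 739 lower, limma 0 and 0, and leaving out a library 647 (without LARP7 replicate 2) to 2131 higher and 196 to 920 lower. The other Pol III models numbered 47 higher and 3 lower; 39 were lower with library totals, 1 with DESeq2, 75 higher and 1 lower without a filter, 0 of either in limma, and 23 to 96 higher and 0 to 3 lower with a library left out. The partner mRNAs numbered 0 higher and 13 lower with library totals, 0 of either in limma, and 0 to 2 higher and 0 to 4 lower with a library left out. The replicate numbers are not stated to mark shared animals, and deviations of same-numbered libraries correlated at 0.2 across genes. With the replicate block 7SK had 4.61 (edgeR adjusted p = 0.00474), no other member's call changed, 1 other Pol III model was lower and 2 partner mRNAs were higher. The causes of these shifts were not tested.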
